A study of Rattus norvegicus with 12 samples.

Results

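The genes described here are the receptors, ligands and direct targets of the Notch signaling pathway in the rat uterus. They were chosen by name: Notch1, Notch2, Notch3, Notch4, Jag1, Jag2, Dll4, Hes1, Hey1 and Heyl were matched to the gene symbols of the 12 transcript abundance files, and the FPKM (fragments per kilobase of transcript, scaled to the mapped reads of the library) of the transcripts of each symbol were summed. Of the 10 names, 9 were found among the 16493 gene symbols, each with 1 annotated transcript. Jag2 was not analysed here.

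Uteri came from ovariectomized female Sprague Dawley rats in 4 groups. SPI-E2 rats ate soy protein isolate, a protein source that carries plant isoflavones, and were given 17β-estradiol (E2), the chief estrogen of the ovary, at 5 μg/kg/d through a pump under the skin. SPI rats ate the same soy diet and received vehicle. CAS-E2 rats ate casein, the milk protein, and received the same dose of E2, and CAS rats ate casein and received vehicle. By the methods of the study the diets began on postnatal day 30, ovaries were removed on day 50 in all groups, and uteri were taken on day 65. The study gives a shorter feeding period elsewhere, so the time on the diets is uncertain. Each group had 3 libraries, named by group and number (SPI-E2 1), and each library was a pool of equal RNA from 2 uteri. Thus 6 uteri stand behind a group, and errors are those between pools of whole uterus. Libraries of 1 group were sequenced together, so that lane and group cannot be told apart.

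Notch proteins are receptors at the cell surface that are switched on by ligands of the Jagged and Delta-like families on a neighboring cell. The bound receptor is cut by an ADAM protease and then by γ-secretase, and the freed intracellular part enters the nucleus, where it joins the DNA-binding protein RBPJ and switches on genes of the Hes and Hey families of transcriptional repressors. The pathway is best known for the choice of fate between neighboring cells and for the growth of blood vessels, in which Dll4 and Notch4 belong to the endothelium, and Notch3 and Heyl to the smooth muscle and pericytes of the vessel wall.

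The promoters of the target genes are shown because Hes1 and Heyl, both targets of the pathway, had unlike levels in the groups. The sequences are from RefSeq on the GRCr8 build and hold the 180 bases before the annotated start on the strand of the gene. Capitals mark TGGGAA, the core that RBPJ binds, or its complement TTCCCA where the core lies on the other strand. Hes1 is at chr11:84213046-84213225 (minus strand), Heyl at chr5:140793091-140793270 (plus strand) and Hey2, another target of the pathway, at chr1:28640920-28641099 (plus strand).
Hes1: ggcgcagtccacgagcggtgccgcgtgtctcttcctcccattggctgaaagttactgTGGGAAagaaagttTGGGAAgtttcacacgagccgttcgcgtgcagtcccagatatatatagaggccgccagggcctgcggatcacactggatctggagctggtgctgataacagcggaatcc
Heyl: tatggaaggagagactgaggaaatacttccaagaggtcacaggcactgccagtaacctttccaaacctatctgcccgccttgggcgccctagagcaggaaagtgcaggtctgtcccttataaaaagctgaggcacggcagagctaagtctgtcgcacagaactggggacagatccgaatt
Hey2: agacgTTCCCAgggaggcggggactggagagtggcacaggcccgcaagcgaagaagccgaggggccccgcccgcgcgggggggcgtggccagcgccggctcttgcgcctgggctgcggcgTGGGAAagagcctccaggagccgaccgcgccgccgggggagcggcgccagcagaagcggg
The Hes1 promoter held TGGGAA at 123 and 109 bases before the start, both on the strand of the gene, in tandem. Hey2 held it at 60 bases on the strand of the gene and at 175 bases on the other. The Heyl window held none. Of the 10 names, 8 had a promoter in the table, Dll4 and Hey1 not among them, and 250 bases before the start were searched on both strands. TGGGAA was in the windows of Hes1 and Notch4 only, Notch4 with 2 on the other strand. It was in 22.1% of all 33469 promoters of that length, and 1.62% had 2 or more on 1 strand. CACGTG, the E-box that Hey proteins bind, was in no member and in 5.59% of all promoters. CACGCG, a site of Hes proteins, was in Notch2, Jag1, Hes1 and Heyl, in only 1 of the promoters listed for Jag2, and in 7.14% of all promoters. The full estrogen response element, GGTCA and TGACC set 3 bases apart, was in no member and in 0.0239% of all. In the members no match of one motif overlapped a match of another. A match is a description of the letters, not of binding.

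The files imply 6353210 to 9862180 mapped reads for a library. The estimated reads behind 1 value of a member were lowest for Hey1 (3 to 22) and highest for Notch3 (95 to 966), so Hey1 is the least precise. FPKM is scaled to transcript length, so levels of different genes can be set side by side. SPI-E2 1 stood apart from SPI-E2 2 and SPI-E2 3 in most members and lay close to the SPI libraries. The differences on soy are therefore mostly given without it as well. That library was singled out by these same values, so larger differences without it follow from the choice. They are given as a description and not as further evidence. The uterine identity list (9 of 10 genes measured, among them the estrogen receptor Esr1 and the progesterone receptor Pgr) summed to 124 to 163 FPKM in SPI-E2, 138 to 152 in SPI, 117 to 144 in CAS-E2 and 195 to 214 in CAS.

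In CAS uteri Hes1 and Notch3 had the highest levels of the members, at 12.6 ± 0.895 and 12.2 ± 1.29 FPKM (SD, n = 3 pools), with overlapping libraries. Next came Notch1 at 7.80 ± 0.394, Notch2 at 7.34 ± 0.795, Jag1 at 6.93 ± 0.632 and Dll4 at 6.23 ± 0.431 FPKM, where each neighbor in that order overlapped the next. Heyl followed at 4.16 ± 0.442 FPKM and overlapped neither neighbor. Notch4, at 2.96 ± 0.247 FPKM, and Hey1, at 2.24 ± 0.435 FPKM, overlapped slightly. Under E2 the order was another one. Hes1 stood far above the rest in CAS-E2, at 13.7 ± 3.39 FPKM, and Jag1, at 4.48 ± 0.624 FPKM, was next, while Heyl, at 0.831 ± 0.134 FPKM, was lower than all but Hey1, at 0.593 ± 0.296 FPKM.

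**Figure D1:**
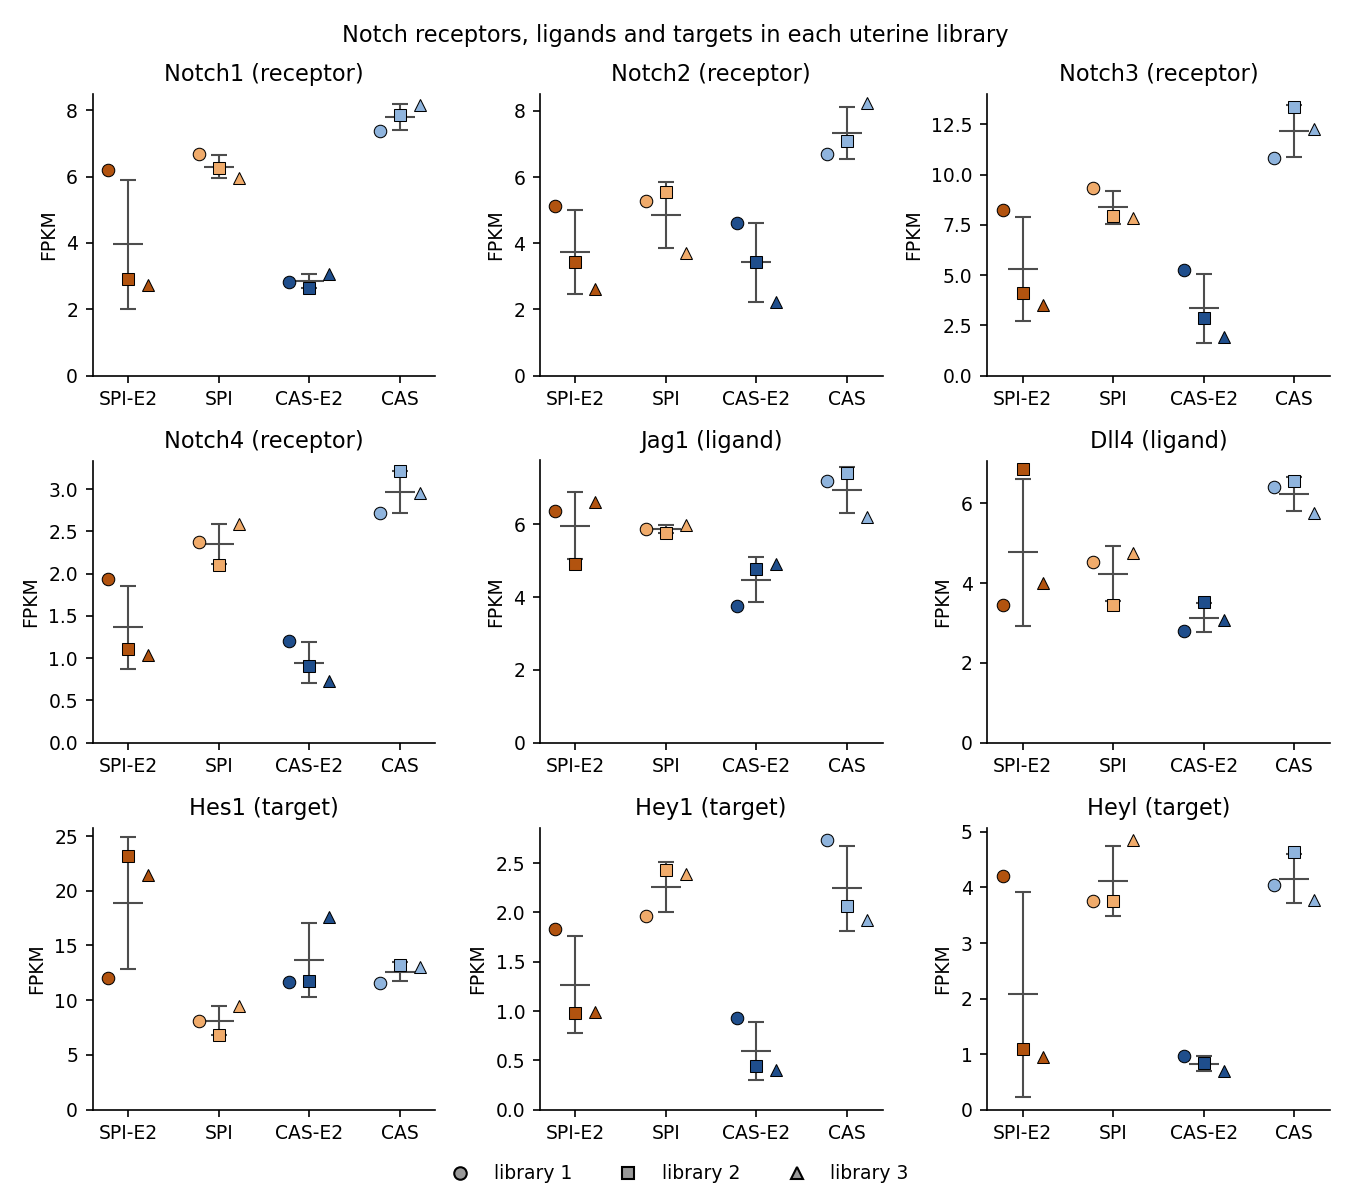
Level of each of the 9 measured genes in each library. The vertical axis is FPKM from 0, points are pools of 2 uteri with a shape for each library number, and lines are the group mean with SD (n = 3 pools). The CAS-E2 points lie below all CAS points for every gene but Hes1, and SPI-E2 1 lies apart from the other SPI-E2 points in the receptors and in Hes1, Hey1 and Heyl.

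On the casein diet all 4 receptors, both ligands and 2 of 3 targets were lower with E2, and the remaining target, Hes1, did not pass. In the limma fit over all 12 libraries, 5 of 9 members (Notch1, Notch3, Notch4, Hey1, Heyl) were lower in CAS-E2 than in CAS at an adjusted p under 0.05 and at least 2-fold on the log2(FPKM + 1) scale. Of all 10279 genes tested, 6.37% met that rule in that direction. At any fold 8 of 9 members were lower, against 22.0% of all genes. The CAS-E2 libraries were all below the CAS libraries for 8 of 9 members, against 31.2% of all genes. The median difference of the members was -1.03 and that of all genes -0.07. In bulk uterus, fewer cells of a type and less RNA per cell cannot be told apart.

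Notch3, the receptor of vascular smooth muscle, lies on chromosome 7 of rn4 from 12688267 to 12740015 (minus strand, 33 exons). It had 5.26, 2.86 and 1.91 FPKM in CAS-E2 libraries 1 to 3, against 10.8, 13.4 and 12.3 FPKM in CAS. The highest CAS-E2 value was far below the lowest CAS value. The mean was 3.63-fold lower in CAS-E2, and the difference was -1.67 on the log2 scale (SE 0.29, adjusted p = 0.00151, limma), the largest fall among the members on that scale.

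Notch1, a receptor used in many tissues, lies on chromosome 3 from 4631797 to 4677640 (minus strand, 34 exons). It had 2.83, 2.65 and 3.06 FPKM in CAS-E2, against 7.38, 7.85 and 8.16 FPKM in CAS. Both groups were tight, with no overlap. The difference was -1.19 (SE 0.21, adjusted p = 0.00149, limma), and Notch1 kept a 2-fold fall in all 21 alternative settings.

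Notch4, a receptor of endothelial cells, lies on chromosome 20 from 4263205 to 4287312 (minus strand, 30 exons). It had 1.21, 0.906 and 0.728 FPKM in CAS-E2, against 2.72, 3.21 and 2.96 FPKM in CAS. The groups did not overlap at these low levels. The difference was -1.03 (SE 0.16, adjusted p = 0.0010, limma). It passed in all 20 alternatives that tested the gene, at 2-fold in 17 of them, and median-ratio scaling and leaving out CAS-E2 3 were among those that ended the 2-fold call.

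Notch2, the remaining receptor, lies on chromosome 2 from 192855287 to 192986589 (plus strand, 35 exons). It had 4.61, 3.44 and 2.23 FPKM in CAS-E2, against 6.70, 7.09 and 8.23 FPKM in CAS. The CAS-E2 libraries spread more than the CAS libraries but stayed below them. The mean was 2.14-fold lower in CAS-E2. On the log2 scale with 1 added the difference was -0.94 (SE 0.23, adjusted p = 0.00834, limma), short of the 2-fold line. Notch2 reached that line in 4 of 21 alternatives.

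The 4 receptors summed to 13.9, 9.86 and 7.92 FPKM in CAS-E2 1 to 3 and to 27.6, 31.5 and 31.6 FPKM in CAS. Notch3 made 24.1% to 37.8% of that sum in CAS-E2 and 38.8% to 42.4% in CAS, and the shares of the groups did not overlap. Notch2 made 28.2% to 34.9% in CAS-E2 and 22.5% to 26.0% in CAS, again with no overlap. The share of Notch4 was 8.66% to 9.19% in CAS-E2 and 9.36% to 10.2% in CAS, a small step without overlap, and that of Notch1 overlapped. The shares of 1 library add up to the whole and are given as a description.

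**Figure D2:**
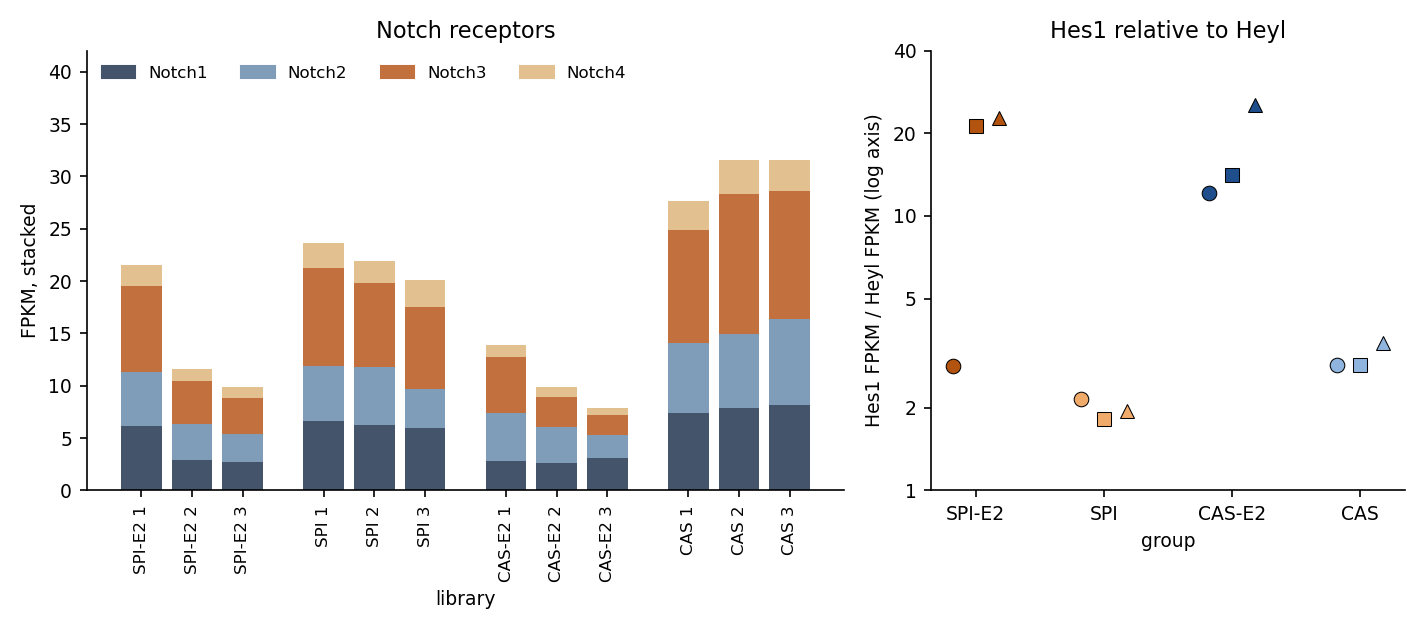
Left, FPKM of the 4 receptors stacked for each library. Right, the FPKM of Hes1 divided by that of Heyl on a log axis, with a point shape for each library number as in the plot of levels. The receptor sum is 7.92 to 13.9 FPKM in CAS-E2 against 27.6 to 31.6 FPKM in CAS, and SPI-E2 1, at 21.5 FPKM, lies within the SPI range of 20.1 to 23.6 FPKM. The ratio in SPI-E2 1 is 2.85, against 21.3 and 22.7 in the other SPI-E2 libraries.

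Of the ligands, Jag1 (chromosome 3, 125181063 to 125216481, minus strand, 27 exons), which epithelial and vascular cells present to their neighbors, had 3.76, 4.77 and 4.91 FPKM in CAS-E2, against 7.18, 7.40 and 6.21 FPKM in CAS. The groups did not overlap, and the difference was -0.54 (SE 0.14, adjusted p = 0.0114, limma), the smallest of the 8 falls. Dll4 (chromosome 3, 105844671 to 105854738, plus strand, 11 exons), the ligand of endothelial tip cells, had 2.79, 3.52 and 3.08 FPKM in CAS-E2, against 6.42, 6.55 and 5.74 FPKM in CAS. Its levels did not overlap either, and the difference was -0.81 (SE 0.20, adjusted p = 0.00778, limma). Both ligands passed in all 21 alternatives at any fold and reached 2-fold in 0 of them.

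Of the targets, Heyl and Hey1 fell and Hes1 did not pass. Heyl (chromosome 5, 142544185 to 142561176, plus strand, 5 exons), a repressor that Notch3 switches on in vascular smooth muscle, had 0.962, 0.835 and 0.695 FPKM in CAS-E2, against 4.04, 4.64 and 3.78 FPKM in CAS. That was 5.003-fold lower in mean FPKM, the largest ratio among the members, while the log2 scale with 1 added gives -1.49 (SE 0.30, adjusted p = 0.00301, limma). Hey1 (chromosome 2, 95174030 to 95176430, plus strand, 5 exons), a repressor of the same family, had 0.934, 0.446 and 0.4002 FPKM in CAS-E2, against 2.74, 2.06 and 1.92 FPKM in CAS. Its groups did not overlap, and the difference was -1.03 (SE 0.19, adjusted p = 0.00190, limma), on very few reads. The 2-fold call of Hey1 held in 16 of 20 alternatives and the adjusted p passed in all 20.

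Hes1 (chromosome 11, 72603482 to 72605673, minus strand, 3 exons), the repressor through which Notch keeps many progenitor cells undifferentiated, had 11.6, 11.8 and 17.6 FPKM in CAS-E2, against 11.6, 13.3 and 13.0 FPKM in CAS. The groups overlapped. The difference was 0.08 (SE 0.23, 95% interval -0.43 to 0.60, adjusted p = 0.799, limma), so a rise or fall within that interval is open, and it was -0.10 without CAS-E2 3. The ratio of Hes1 to Heyl was 12.1, 14.1 and 25.3 in CAS-E2 1 to 3, against 2.87, 2.85 and 3.44 in CAS.

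On the soy diet fewer members passed. Hes1 was the member that rose, and Notch1, Notch4 and Heyl were lower at an adjusted p under 0.05 with less than a 2-fold change. Thus 1 of 9 members was higher by both cutoffs, against 8.39% of all genes, and 3 of 9 were lower at any fold, against 6.57% of all genes. The median difference of the members was -0.52 and that of all genes 0.11, which was -0.01 after median-ratio scaling.

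Hes1 had 12, 23.1 and 21.5 FPKM in SPI-E2 libraries 1 to 3, while 8.08, 6.82 and 9.47 FPKM were found in SPI. All SPI-E2 libraries were above all SPI libraries, and SPI-E2 1 was the lowest of them. The difference was 1.08 (SE 0.23, adjusted p = 0.00706, limma), and 1.36 without SPI-E2 1 (adjusted p = 0.00022, limma). The adjusted p passed in all 21 alternatives. The 2-fold line was missed in 4 of them, with median-ratio scaling and without SPI 2, SPI-E2 2 or SPI-E2 3, where no member met both cutoffs.

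For the falls on soy the library SPI-E2 1 mattered. Heyl had 4.21, 1.08 and 0.946 FPKM in SPI-E2 1 to 3, while 3.75, 3.75 and 4.85 FPKM were found in SPI. SPI-E2 1 lay within the SPI values and the other SPI-E2 libraries lay far below them. The difference was -0.88 (SE 0.30, adjusted p = 0.0458, limma), and -1.34 without SPI-E2 1 (adjusted p = 4.68e-05, limma). With 1 library left out the difference ran from -1.34 to -0.63, with an adjusted p of up to 0.179 (limma). It passed in 7 of 20 alternatives, so the call of Heyl on soy depends on the setting.

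Notch1 had 6.19, 2.93 and 2.75 FPKM in SPI-E2, while 6.67, 6.26 and 5.97 FPKM were found in SPI. Here too SPI-E2 1 lay among the SPI libraries. The difference was -0.63 (SE 0.21, adjusted p = 0.0429, limma), and -0.93 without SPI-E2 1 (adjusted p = 0.00012, limma). With 1 library left out it ran from -0.93 to -0.46, with an adjusted p of up to 0.165 (limma). It passed in 9 of 21 alternatives. Notch4 had 1.93, 1.11 and 1.04 FPKM in SPI-E2, while 2.37, 2.11 and 2.58 FPKM were found in SPI. Its groups did not overlap. The difference was -0.52 (SE 0.16, adjusted p = 0.0350, limma), and -0.69 without SPI-E2 1 (adjusted p = 0.00335, limma), and it passed in 13 of 20 alternatives.

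Notch3 had 8.25, 4.11 and 3.50 FPKM in SPI-E2, while 9.33, 7.96 and 7.86 FPKM were found in SPI. SPI-E2 1 overlapped the SPI libraries. The difference was -0.65 (95% interval -1.28 to -0.02, adjusted p = 0.114, limma), and -0.97 without SPI-E2 1 (adjusted p = 0.0118, limma). Hey1 had 1.83, 0.977 and 0.987 FPKM in SPI-E2, while 1.97, 2.42 and 2.39 FPKM were found in SPI, with no overlap. It missed the threshold narrowly (difference -0.54, adjusted p = 0.0506, limma) and passed it without SPI-E2 1 (-0.71, adjusted p = 0.00822, limma). Notch2 had 5.12, 3.43 and 2.63 FPKM in SPI-E2, while 5.27, 5.56 and 3.71 FPKM were found in SPI, and did not pass (difference -0.32, 95% interval -0.83 to 0.18). The receptors summed to 21.5, 11.6 and 9.92 FPKM in SPI-E2 1 to 3 and to 23.6, 21.9 and 20.1 FPKM in SPI. Notch3 made 35.2% to 38.4% of the sum in SPI-E2 and 36.4% to 39.5% in SPI, with overlap.

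Neither ligand passed on soy. Jag1 had 6.38, 4.90 and 6.60 FPKM in SPI-E2, while 5.88, 5.77 and 5.98 FPKM were found in SPI, and its difference was 0.01 (95% interval -0.30 to 0.32) beside -0.54 on casein. The test of that gap, the interaction, gave 0.54 (adjusted p = 0.248, limma) and did not pass. Dll4 had 3.45, 6.86 and 3.99 FPKM in SPI-E2, while 4.52, 3.44 and 4.74 FPKM were found in SPI. SPI-E2 2 was the highest of these 6 libraries, and the difference was 0.10 (95% interval -0.33 to 0.53). Without SPI-E2 1 the differences were -0.038 for Jag1, 0.27 for Dll4 and -0.53 for Notch2, and none passed (adjusted p = 0.862, 0.294 and 0.0870, limma). The signs of both ligands turned with median-ratio scaling, to -0.11 for Jag1 and -0.02 for Dll4. The ratio of Hes1 to Heyl was 2.85, 21.3 and 22.7 in SPI-E2 1 to 3, against 2.15, 1.82 and 1.95 in SPI.

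**Figure D3:**
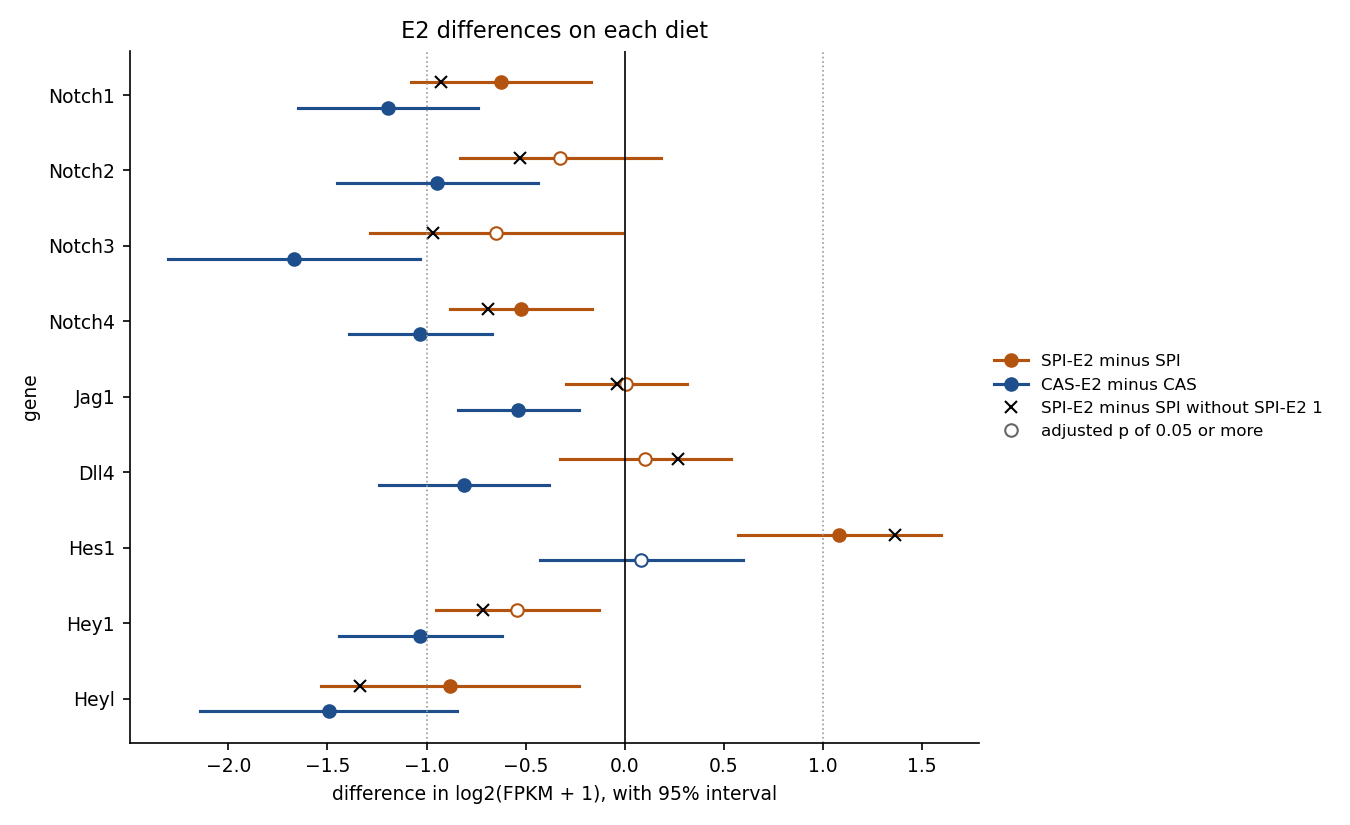
Difference in log2(FPKM + 1) with its 95% interval for each gene, SPI-E2 minus SPI above CAS-E2 minus CAS. Filled points have an adjusted p under 0.05, crosses give SPI-E2 minus SPI without SPI-E2 1, and dotted lines mark 2-fold. All points for casein but that of Hes1 (0.08) lie between -1.67 and -0.54, while on soy Hes1 is at 1.08 and the ligands are near 0.

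Whether the E2 difference itself depended on the diet was tested as an interaction, the difference on soy minus that on casein. The value was above 0 for all 9 members, with a median of 0.61 beside 0.21 for all genes, and it passed an adjusted p under 0.05 for 0 of 9 (limma). Over all genes the share past it was 0% (0 of 10279), with 1530 genes, 5 of them members, at an unadjusted p under 0.05. The largest values were 1.02 for Notch3 (95% interval 0.12 to 1.92), 1.00 for Hes1 (0.27 to 1.72) and 0.92 for Dll4 (0.31 to 1.52), with adjusted p of 0.276, 0.224 and 0.194 (limma). Without SPI-E2 1 the value of Hes1 was 1.28 (adjusted p = 0.0426, limma), that of Dll4 1.08 (adjusted p = 0.0680) and that of Notch3 0.70 (adjusted p = 0.277). With array weights, which give less weight to libraries that fit poorly, 2 members passed. By both cutoffs that setting called 170 of 10279 genes, 1 of them a member. The share of all genes past it at any fold is not given here. Median-ratio scaling brought the median of all genes to 0.01 and that of the members to 0.42, all 9 still above 0. The members were thus not shown to respond differently on the diets. Hes1 passed only with array weights and without SPI-E2 1, the library singled out by its values. Dll4 passed only with array weights.

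Without E2, the diets were compared as SPI minus CAS. No member passed (0 of 9), and of all genes 2 were lower (0.0195%, limma), while 1319 genes had an unadjusted p under 0.05, among them Notch2, Dll4 and Hes1. All SPI libraries lay below all CAS libraries for 7 of 9 members, against 30.8% of all genes. The median of all genes was itself -0.16 in that comparison. After median-ratio scaling, which moved it to -0.01, 2 of 9 (Notch3 and Dll4) stayed below, against 11.3% of all genes. Hes1 had the largest difference, -0.59 (95% interval -1.10 to -0.07, adjusted p = 0.347, limma), with 8.08, 6.82 and 9.47 FPKM in SPI and 11.6, 13.3 and 13.0 FPKM in CAS. Heyl and Hey1 had nearly equal means in both groups, and their differences of -0.01 (95% interval -0.66 to 0.63) and 0.01 (-0.40 to 0.42) changed sign with the libraries used. With array weights Notch2, Notch3, Dll4 and Hes1 passed as lower in SPI, none of them at 2-fold. By both cutoffs that setting called 59 of 10279 genes and 0 of 9 members. The share of all genes past it at any fold is not given here, so the count of 4 has no background.

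Under E2, SPI-E2 minus CAS-E2 was above 0 for all 9 members, with a median of 0.41 beside 0.04 for all genes, and 0 of 9 passed. Over all genes 1 passed as higher (0.00973%, limma), and 601 had an unadjusted p under 0.05, among them Jag1, Dll4 and Hey1. Hey1 was higher in all SPI-E2 libraries (1.83, 0.977 and 0.987 FPKM) than in all CAS-E2 libraries (0.934, 0.446 and 0.4002 FPKM), with a difference of 0.50 (95% interval 0.09 to 0.91). Without SPI-E2 1 the median was 0.22 and Notch1 and Notch2 were below 0, so the sign of both receptors depends on that library. The labels do not pair the libraries of these groups. Set side by side by number, 7 of 9 members, all but Notch1 and Notch2, were higher in SPI-E2 in 3 of 3. That count is a description, since a pairing by number was not tested and the same share over all genes is not given here. It is not read as a result about the members. The sign of Notch2 turned without CAS-E2 3 and with array weights as well.

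Set against CAS, the control of the study, SPI-E2 was lower for Notch1, Notch2, Notch3, Notch4 and Heyl at any fold (5 of 9, against 14.9% of all genes). The call of Heyl there (-0.90, adjusted p = 0.0413, limma) held in 7 of 20 alternatives and was lost with median-ratio scaling (adjusted p = 0.0507). Of these Notch3 alone met the 2-fold line on the log2 scale (1 of 9, against 3.89% of all genes), at -1.14 (SE 0.29, adjusted p = 0.0146, limma). In mean FPKM Notch4 was 2.17-fold lower as well. Without SPI-E2 1, 4 members met the line on the log2 scale. Over all 10279 genes the calls by both cutoffs, in either direction, rose as well, from 1103 to 1783. Without CAS 2, SPI-E2 2 or SPI-E2 3 no member met the line. Hes1 was at 0.50 (adjusted p = 0.129, limma) and passed as higher without SPI-E2 1, at 0.78 (adjusted p = 0.00701). These 3 comparisons with CAS or CAS-E2 share libraries and are not independent of those above.

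The cell type lists moved with the same groups. Their counts are read beside the shares of all genes. On casein 7.99% of all genes rose with E2 and 6.37% fell by both cutoffs, and on soy 8.39% rose and 1.86% fell. At any fold the shares were 17.1% and 22.0% on casein and 21.1% and 6.57% on soy. Without SPI-E2 1 those on soy were 12.5% and 4.44% by both cutoffs and 27.7% and 14.4% at any fold.

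Of 13 endothelial markers tested, 7 were lower in CAS-E2 than in CAS by both cutoffs and 11 at any fold, with a median of -1.04, close to the -1.03 of the members. In SPI-E2 against SPI, 1 was lower by both cutoffs and 5 at any fold, with a median of -0.57 beside -0.52. Without SPI-E2 1, 4 were lower by both cutoffs and 8 at any fold (median -0.80 beside -0.69 for the members). The 14 endothelial genes found summed to 75.9 to 103 FPKM in SPI-E2, 108 to 133 in SPI, 62.5 to 81.9 in CAS-E2 and 137 to 153 in CAS. Cdh5, the cadherin of endothelial junctions, was lower on both diets, with 6.59 ± 2.17 FPKM in CAS-E2 against 19.2 ± 2.36 in CAS, and 6.76 ± 4.21 in SPI-E2 against 14.5 ± 2.33 in SPI (SD, n = 3). Pecam1, the adhesion molecule that marks all endothelium, did not pass on either diet, at -0.41 on casein (adjusted p = 0.0598) and -0.30 on soy (adjusted p = 0.182, limma). Without SPI-E2 1 the soy differences were -1.53 for Cdh5 (adjusted p = 0.000502) and -0.19 for Pecam1 (adjusted p = 0.377, limma). Kdr was not analysed here, and Cldn5, a claudin of endothelial junctions, was listed at 0 in all libraries.

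Epithelial markers went the other way. By both cutoffs 9 of 14 rose and 1 fell in CAS-E2 (median 1.31), against 7.99% and 6.37% of all genes. In SPI-E2 12 rose (median 1.93), against 8.39% of all genes, and 13 without SPI-E2 1 (median 2.45). The 15 genes found summed to 635 to 2225 FPKM in SPI-E2, 155 to 193 in SPI, 1079 to 1854 in CAS-E2 and 247 to 277 in CAS. Krt8, a keratin of simple epithelium, had 321 FPKM in CAS-E2 against 43.7 in CAS, and 387 FPKM in SPI-E2 against 29.6 in SPI. Epcam and Cdh1, adhesion proteins of epithelial cells, were higher by both cutoffs on both diets, while Cldn3, an epithelial claudin, was listed at 0 in all libraries. Epcam and Cdh1 were at 1.25 and 1.12 on casein and at 1.79 and 1.56 on soy, and without SPI-E2 1 the soy differences were 2.25, 1.96 and, for Krt8, 4.08.

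SPI-E2 1 had the lowest epithelial sum of its group, 635 FPKM against 2186 and 2225, which was still far above the 155 to 193 of SPI. It had the highest endothelial sum of the group, 103 FPKM against 75.9 and 93.6, and that was below the 108 to 133 of SPI. Its stromal sum was 744 FPKM, against 309 and 426 in the other SPI-E2 libraries and 810 to 949 in SPI. The same library had the highest receptor sum and the lowest Hes1 of the group. By the read summary of the study it also had the highest alignment rate and the smallest share of over-represented sequences of the group. In both it lay near the SPI libraries. In every other group library 1 likewise had the highest rate and the smallest share, so this feature is not particular to SPI-E2 1. The part of read quality in these differences was not tested.

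Of 10 stromal markers tested, 3 were lower in CAS-E2 by both cutoffs (median -0.76) and 6 were lower in SPI-E2 (median -1.001), against 6.37% and 1.86% of all genes. Without SPI-E2 1, 8 were lower on soy (median -1.34). Pdgfra, a receptor of stromal fibroblasts, passed on soy (-1.001, adjusted p = 0.0426) and not on casein (-0.88, adjusted p = 0.0536, limma). Of 13 mural and smooth muscle markers, 2 were lower by both cutoffs in CAS-E2 (median -0.50) and 1 in SPI-E2 (median -0.36), and 3 in SPI-E2 without SPI-E2 1 (median -0.46). Myh11, the myosin of smooth muscle, and Pdgfrb, a receptor of pericytes, passed on neither diet, at -0.52 and -0.38 on casein, but both passed on soy without SPI-E2 1, at -0.79 and -0.92 (adjusted p = 0.0192 and 0.00111, limma). Rgs5, a pericyte marker, was lower on soy (-1.004, adjusted p = 0.0213) and did not pass on casein (-0.50, adjusted p = 0.169, limma). Not all of this list was lower with E2. Actg2 and Des were at 0.94 and 0.75 on casein and at 0.80 and 0.68 on soy. Neither passed on either diet (adjusted p = 0.0571 to 0.159, limma). The mural and smooth muscle list summed to 2749 to 4509 FPKM in SPI-E2, 2318 to 2734 in SPI, 2057 to 4791 in CAS-E2 and 2810 to 3119 in CAS. Of 8 leukocyte markers, 6 were higher in CAS-E2 and 2 in SPI-E2, against 7.99% and 8.39% of all genes, and 2 in SPI-E2 without SPI-E2 1. Without that library Pdgfra and Rgs5 were at -1.37 and -1.24 on soy (adjusted p = 0.00354 and 0.00457, limma). The part of these cell types in the values of the Notch genes was not tested.

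**Figure D4:**
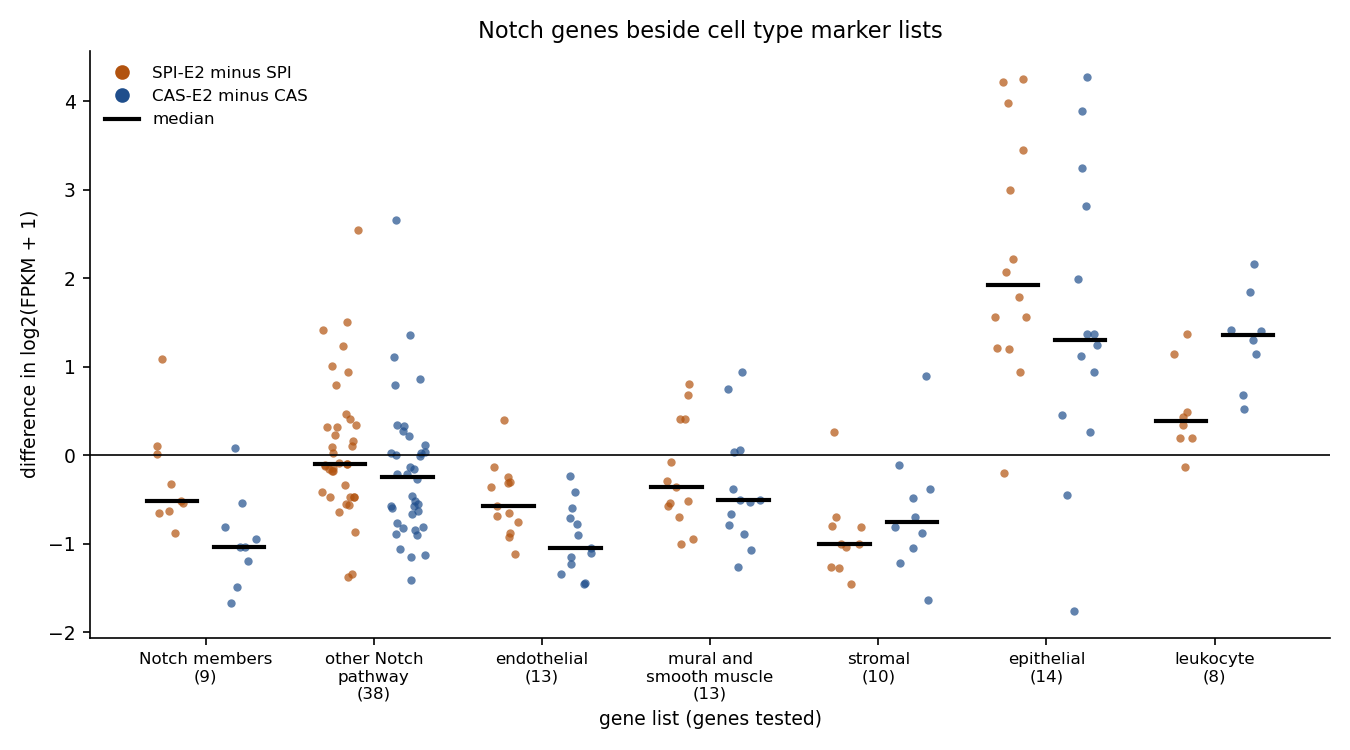
Difference in log2(FPKM + 1) of each tested gene in the Notch lists and in 5 cell type marker lists, SPI-E2 minus SPI left of CAS-E2 minus CAS. Points are genes, black bars are list medians, and numbers in brackets are genes tested. The medians of the Notch members (-0.52 and -1.03) lie close to those of the endothelial markers (-0.57 and -1.04), and the epithelial medians are at 1.93 and 1.31.

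Of 62 other genes of the pathway, 46 were in the files and 38 were tested. In CAS-E2 against CAS, 3 were higher and 4 lower by both cutoffs, or 5 and 13 at any fold, with a median of -0.24. The shares of all genes were 7.99% and 6.37% by both cutoffs and 17.1% and 22.0% at any fold. In SPI-E2 against SPI, 5 were higher and 1 lower by both cutoffs, or 8 and 2 at any fold, with a median of -0.10. The shares of all genes were 8.39%, 1.86%, 21.1% and 6.57%, and most of the counts on both diets lie near these shares. Without SPI-E2 1, 7 were higher and 5 lower on soy by both cutoffs, or 8 and 10 at any fold, with a median of -0.11. The lists were chosen with earlier results of these data known.

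Among the processing enzymes, Ncstn and Furin were higher with E2 on both diets. Ncstn, the nicastrin subunit that docks the substrate, had 48.0 ± 17.2 FPKM in SPI-E2 against 15.5 ± 0.884 in SPI, and 44.5 ± 4.33 FPKM in CAS-E2 against 20.03 ± 2.11 in CAS (SD, n = 3). Its differences were 1.502 and 1.12 (adjusted p = 0.00151 and 0.00401, limma). Aph1a, another γ-secretase subunit, passed on soy (1.01, adjusted p = 0.00908) and not on casein (0.33, adjusted p = 0.282, limma). Furin, the convertase that cuts the receptor on its way to the surface, was higher by 1.42 on soy and by 0.86, under 2-fold, on casein (adjusted p = 0.00179 and 0.0125, limma). Without SPI-E2 1 the soy differences were 1.84 for Ncstn, 1.26 for Aph1a and 1.75 for Furin, and all passed. The call of Aph1a on soy was lost where only the groups compared were fitted (adjusted p = 0.0526, limma).

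In the nucleus, Rbpj, the DNA-binding partner of Notch, had 8.57 ± 2.74 FPKM in CAS-E2 against 9.37 ± 1.26 in CAS, and 7.91 ± 1.26 in SPI-E2 against 8.56 ± 1.21 in SPI (SD, n = 3). The groups overlapped and neither difference passed (-0.15 and -0.10, and -0.19 on soy without SPI-E2 1). Tle1, a corepressor that Hes proteins recruit, had 6.32, 4.82 and 5.15 FPKM in CAS-E2 against 16.0, 15.5 and 16.7 FPKM in CAS. It fell by 1.41 on casein (adjusted p = 0.000262, limma) and was at -0.47 on soy (adjusted p = 0.0640). It passed there without SPI-E2 1 (-0.68, adjusted p = 0.00247, limma), and with median-ratio scaling and array weights.

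Of further ligands, Nov (CCN3), a secreted protein that binds Notch1, was lower on both diets, at -1.06 on casein and -1.34 on soy (adjusted p = 0.0198 and 0.00975, limma), and at -1.57 on soy without SPI-E2 1. The casein call was lost without CAS 1, CAS 2 or CAS-E2 1, at -0.89 to -1.02 (adjusted p = 0.0589 to 0.0753, limma). Dll1, a Delta-like ligand, was under the filter, with 0.318 to 0.649 FPKM in SPI-E2, 0.577 to 1.49 in SPI, 0.101 to 0.714 in CAS-E2 and 0.831 to 0.975 in CAS. Among the modifiers, Numbl, a relative of the Notch inhibitor Numb, was lower by 2-fold on casein only (-1.13 there, -0.48 on soy, adjusted p = 0.00665 and 0.198, limma), and the interaction did not pass. It passed on soy with array weights and was at -0.66 without SPI-E2 1 (adjusted p = 0.0787, limma). Dtx3l, a Deltex-family ubiquitin ligase, was higher on both diets, by 1.36 on casein and 1.23 on soy, where it was 1.44 without SPI-E2 1.

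Of further targets, Hey2, a vascular member of the Hey family, had 0.868, 0.987 and 0.465 FPKM in CAS-E2 against 3.39, 2.97 and 2.41 FPKM in CAS. It was lower in every CAS-E2 library (-1.15, adjusted p = 0.00257, limma), while on soy it was at -0.55 (adjusted p = 0.0812). On soy too it passed without SPI-E2 1 (-0.81, adjusted p = 0.00469, limma), and with median-ratio scaling, array weights or the replicate block (adjusted p = 0.0480). Nrarp, a feedback inhibitor that Notch switches on, did not pass on casein (-0.21) or soy (0.32, and 0.57 without SPI-E2 1). Bhlhe40, a basic helix-loop-helix repressor of the circadian clock, stood in the list of further targets. Whether Notch acts on Bhlhe40 was not tested. It was the gene of these lists with the largest rise, 2.65 on casein and 2.54 on soy (3.02 without SPI-E2 1). Its level was 31.4 ± 3.10 FPKM in CAS-E2 against 4.17 ± 0.785 in CAS.

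The members were also compared with one another by the root mean square difference of their centred log2(FPKM + 1) over the 12 libraries, where 0 is an identical pattern. Notch1 and Notch4 were the closest pair (0.16), then Notch4 and Hey1 (0.18), and Jag1 and Dll4 were closest to each other among the ligands (0.29). Hes1 was far from all others, at 0.51 from Dll4 and 1.06 from Heyl, the most distant pair. The groups and the libraries are the same for all genes, and the distance grows with the size of the change.

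Outside the members, the genes nearest to each pattern were named by rank. For Notch3 they were Tie1 (0.16), an endothelial receptor that is also in the endothelial list, Olfml2a and Mppe1. For Hes1 they were Grhl2 (0.14), an epithelial transcription factor that is also in the epithelial list, Cyb561 and RGD1561149. Grhl2 itself was at 0.94 on soy (adjusted p = 0.0176) and 0.26 on casein (adjusted p = 0.428, limma), and Tie1 at -0.68 on soy (adjusted p = 0.0752) and -1.44 on casein (adjusted p = 0.00200). Without SPI-E2 1 Grhl2 was at 1.27 and Tie1 at -0.98 on soy (adjusted p = 0.000235 and 0.00619, limma). For Notch1 they were Idh2, KIFC2 and Ntng1 (0.11 to 0.12), for Notch2 Pcdh7, Cds2 and Insr (0.07 to 0.10), and for Notch4 Ppp1r13b, Plcg1 and Adcy6 (0.09 to 0.11). For Jag1 they were Brd1, Lima1 and Nudt3 (0.10 to 0.12), for Dll4 Rps14, Efna1 and Gnb2l1 (0.12 to 0.16), for Hey1 Deaf1, Sh2d3c and Cyth3 (0.13 to 0.15), and for Heyl Smok2a, Nkd2 and Tef (0.16 to 0.17). Efna1 encodes an ephrin of blood vessels, and it ranked behind Rps14 for Dll4 (0.15 against 0.12).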

How the data were processed

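The 12 uterine libraries, 3 a group and each a pool of 2 uteri, were sequenced as 36-base single reads. The authors filtered the reads for quality, aligned them to rn4 with TopHat2 2.0.9 and Bowtie2 2.1.0 and estimated RefSeq transcripts with Cufflinks 2.1.1. CASAVA 1.7 is named in the processing notes as well. The deposited FPKM, held with other attributes in the text of each transcript line, are relative to the mapped reads of the library. No read counts were used. Strand handling is not given in the sources used here, so overlapping antisense genes cannot be told apart.

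FPKM were summed by gene symbol. A gene was tested where at least 3 libraries reached 1 FPKM (10279 of 16493 symbols), with limma 3.58.1 in R 4.3.3 on log2(FPKM + 1), in 1 fit over the 4 groups, with a trended variance and p-values adjusted by Benjamini-Hochberg. The scale understates changes of genes with low values. A call needed an adjusted p under 0.05 and a 2-fold change. Intervals are at 95%, and p-values measure the spread between pools. Mapped reads and reads behind a value were estimated from coverage and FPKM. Tables and plots used Python 3.11.15, pandas 2.3.3 and matplotlib 3.10.9. Promoters were read from RefSeq (GRCr8), whose coordinates were not mixed with rn4.

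The members, lists and tests were chosen with earlier results of these data known. Named besides the members are the other pathway genes called in either E2 comparison, Rbpj, Dll1, Nrarp, the 3 nearest genes of each member that changed, and 10 set markers. Actg2, Cldn3, Cldn5, Des, Esr1 and Pgr are named in addition as list genes. Replicate numbers come from the labels. Between SPI-E2 and CAS-E2 the deviations from the group means of libraries of 1 number had correlations of 0.27, 0.12 and 0.34. Libraries of unlike number were not compared, so these values do not show a pairing by number. Elsewhere the correlations were -0.26 to 0.15. The alternatives were other pseudocounts, filters, scaling, samples, weights and transcripts, a replicate block, and each library left out.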

Additional observations from a re-analysis of the deposited data

How the results depend on the processing

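Among the 9 members, the count called lower in CAS-E2 was 5 and became 3 with median-ratio scaling, 2 where an FPKM of 1 was required in all 12 libraries (6 members tested), and 3 to 6 with 1 library left out. The count changed at any fold stayed at 8 in every fit that tested all 9 and was 5 with the strict filter. In SPI-E2 minus SPI the count called was 1, 2 with a pseudocount of 0.1 or 0.5 or array weights, 0 with median-ratio scaling, and 0 to 2 with 1 library left out. At any fold it was 4, 2 without a filter and with the strict filter, 1 with only the groups compared, and 1 to 6 with 1 library left out. In SPI minus CAS 4 members passed with array weights and 0 in the other fits. In SPI-E2 minus CAS the count called was 1, 5 and 2 with a pseudocount of 0.1 and 0.5, 3 with array weights, and 0 to 4 with 1 library left out, and at any fold 5, 3 with the strict filter and 2 to 7 with 1 library left out. In the interaction 1 member was called and 2 passed at any fold with array weights, and 0 to 1 with 1 library left out. Shares of all genes at any fold with array weights are not given here.

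Over all genes the strict filter gave 904 calls in CAS-E2 minus CAS, 695 in SPI-E2 minus SPI, 672 in SPI-E2 minus CAS, 0 in SPI minus CAS and 4 in the interaction, with fewer genes tested. In SPI minus CAS, 2 genes in the fit as reported, the count was 0 with a pseudocount of 0.1 or only the groups compared, 1 with a pseudocount of 0.5, without a filter or with median-ratio scaling, and 59 with array weights. In SPI-E2 minus CAS-E2, 1 gene as reported, it was 0 without a filter, with median-ratio scaling or with the highest transcript only, and 4 with array weights. Array weights gave 170 genes in the interaction. Leaving out 1 library gave 1362 to 1629 genes in CAS-E2 minus CAS, 673 to 1740 in SPI-E2 minus SPI, 707 to 1783 in SPI-E2 minus CAS, 0 to 7 in SPI minus CAS, 0 to 5 in SPI-E2 minus CAS-E2 and 0 to 91 in the interaction. The highest count of each of the last 5 came without SPI-E2 1. The cause was not tested.

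With the replicate number as a block the members called numbered 5 in CAS-E2 minus CAS and 1 in SPI-E2 minus SPI, as before, and SPI-E2 minus CAS-E2 had 0 genes over the whole table in place of 1. The block brought Hey1 past the threshold in SPI-E2 minus SPI and in SPI-E2 minus CAS (5 and 6 members at any fold) and changed no other call of a member.

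Signs turned only where no call was made. In SPI-E2 minus CAS-E2 Notch2 was at -0.12 with array weights and at -0.11 to 0.29 with 1 library left out, and Notch1 at -0.0025 to 0.47. In SPI-E2 minus SPI Jag1 was at -0.11 and Dll4 at -0.016 with median-ratio scaling, and at -0.060 to 0.12 and -0.14 to 0.27 with 1 library left out. Hes1 in CAS-E2 minus CAS was at -0.090 with array weights and at -0.10 to 0.18 with 1 library left out. In SPI minus CAS Heyl was at 0.15 with median-ratio scaling and at -0.11 to 0.053 with 1 library left out, and Hey1 at -0.058 to 0.12. Rbpj was at -0.34 to 0.10 on casein and at -0.21 to 0.014 on soy with 1 library left out. Hey1 rests on very few reads, and Jag2 is not covered.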

Other observations

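In both E2 groups library 1 had the highest and library 3 the lowest level of Notch2, Notch3 and Notch4. Notch3 had 8.25, 4.11 and 3.50 FPKM in SPI-E2 1 to 3 and 5.26, 2.86 and 1.91 FPKM in CAS-E2 1 to 3. The stromal marker sum had that order in all 4 groups, with 744, 426 and 309 FPKM in SPI-E2 1 to 3, 949, 933 and 810 in SPI, 896, 600 and 385 in CAS-E2 and 971, 864 and 782 in CAS, so its order is not particular to E2. In SPI, which had no E2, Notch2, Notch3 and Notch4 did not share 1 order of libraries. In CAS, also without E2, library 1 had the lowest level of each, unlike its stromal sum. Notch3 had 10.8, 13.4 and 12.3 FPKM in CAS 1 to 3. The library numbers have no stated meaning in the labels, and the order in the E2 groups was noticed after the values were seen.

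SPI-E2 2 had the highest level of its group for Dll4 (6.86 FPKM, against 3.45 and 3.99), Nrarp (4.78 FPKM, against 1.78 and 2.79), Hes1 (23.1 FPKM, against 12 and 21.5) and the endothelial marker Pecam1 (26.9 FPKM, against 20.2 and 24.6). Its Heyl level, 1.08 FPKM, was low. These genes were picked after their values were seen, and the pattern rests on 1 pool of 2 uteri.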
